A study of Mus musculus with 6 samples.

Results

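The positive arm of the circadian clock and the nuclear receptors that act on it were examined in mGLUTag cells, which are immortalized mouse L-cells, the enteroendocrine cells of the gut that release glucagon-like peptide-1. They comprise 8 genes, namely Arntl, Arntl2, Clock and Npas2, which encode the activators, and Nr1d1, Nr1d2, Rora and Rorb, which encode the receptors. In the array's own annotation they appear as ARNTL, ARNTL2, CLOCK, NPAS2, NR1D1, NR1D2, RORA and RORB. The genes were chosen by name, and every probe whose listed symbol was one of the 8 was taken, giving 14 of the 45281 probes on the array. Total RNA had been collected at 4 h (n = 3) and 16 h (n = 3) after the cells were starved of serum, exposed to forskolin, which raises cAMP, and returned to growth medium, and 1 array was run for each of the 6 samples. All samples therefore share the same line, starvation and forskolin exposure, and no unsynchronized sample was compared. The study selected these times as the peak and trough of Arntl mRNA. Nothing in the labels says that the samples of a time point came from separate cultures, so the p-values measure the spread between these samples, which may be technical.

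In the mammalian clock, BMAL1 (encoded by Arntl) pairs with CLOCK, and the dimer activates genes that carry E-box elements. BMAL2 (Arntl2) and NPAS2 are paralogs that can take the place of BMAL1 and CLOCK in such dimers. Among the genes that the dimer activates are Nr1d1 and Nr1d2, which encode the heme-binding repressors REV-ERBα and REV-ERBβ. These compete with the ROR activators for RORE elements, including those of Arntl itself, and so close a loop that keeps Arntl and the Nr1d genes in opposite phase in most tissues.

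Promoter sequences are shown for Arntl and the Nr1d genes because these are the members of the loop on which the comparison turns. They are RefSeq promoter windows of build GRCm38.p6 (250 bases before and 50 bases from the annotated start), written 5′ to 3′ along the gene. Capitals mark TAGGTCA or TAGGTTA, the core letters of a RORE and of a variant of it, in Arntl, and the reverse complement of the E-box-like CACGTT in Nr1d1. The Nr1d2 window held none of the motifs searched.
Arntl, chr7:113207261-113207560, plus strand: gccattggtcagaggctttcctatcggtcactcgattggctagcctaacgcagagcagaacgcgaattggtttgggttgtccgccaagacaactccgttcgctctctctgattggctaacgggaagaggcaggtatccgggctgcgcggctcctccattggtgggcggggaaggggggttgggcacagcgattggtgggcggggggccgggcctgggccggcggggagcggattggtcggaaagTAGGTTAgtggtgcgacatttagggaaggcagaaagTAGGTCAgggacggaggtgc
Nr1d1, chr11:98775328-98775627, minus strand: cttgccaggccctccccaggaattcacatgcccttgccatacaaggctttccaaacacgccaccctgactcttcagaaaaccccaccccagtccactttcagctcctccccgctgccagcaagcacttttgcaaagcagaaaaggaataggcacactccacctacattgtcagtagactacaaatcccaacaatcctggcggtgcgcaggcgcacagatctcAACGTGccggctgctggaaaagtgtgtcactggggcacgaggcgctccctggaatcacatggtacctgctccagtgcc
Nr1d2, chr14:18239057-18239356, minus strand: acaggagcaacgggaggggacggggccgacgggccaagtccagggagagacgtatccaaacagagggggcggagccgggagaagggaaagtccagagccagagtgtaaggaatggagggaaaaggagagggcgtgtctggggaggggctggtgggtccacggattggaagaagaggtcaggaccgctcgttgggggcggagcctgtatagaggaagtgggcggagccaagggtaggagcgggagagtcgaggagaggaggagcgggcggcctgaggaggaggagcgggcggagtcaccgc

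All 8 genes had such a window, 12 in total, and 8 motifs were searched on both strands. No motif contains another. TAGGTCA was found in 1 member window, that of Arntl, at chr7:113207541-113207547, and in 2.61% of all 32851 windows. TAGGTTA, which was added after the Arntl window had been read, lies at chr7:113207505-113207511, within both overlapping Arntl windows, and in 1.44% of all windows. CACGTT was found in the Nr1d1 window at chr11:98775400-98775405 and in 1 of the windows of Rorb, against 4.68% of all windows. The canonical E-box CACGTG (7.15% of all windows), the second RORE core TGGGTCA (3.98%), the D-boxes TTATGTAA (0.938%) and TTACGTAA (0.119%) and the cAMP response element TGACGTCA (1.79%) were found in 0 of the 12 member windows. The windows are short, and an absent motif says only that these letters are not in them.

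To establish which paralogs are present in this L-cell line, the deposited intensities were compared with a noise limit set for each array. The limit is the 99th percentile of the values below 0 with their sign turned, and it lay between 9.2 and 14 intensity units. Of the 8 genes, 4 lay above it on 3 or more arrays at their brightest probe and are called detected genes. Arntl, Clock and Nr1d2 did so on all 6 arrays and Nr1d1 on 5. The other 4, Arntl2, Npas2, Rora and Rorb, did not. The label of the cells was checked in the same way. Of 12 L-cell and enteroendocrine markers, 9 exceeded the limit on all arrays, among them Gcg, the proglucagon gene, whereas Pyy did so on none and Pcsk1 on 1. Of the markers of beta cells (4), fibroblasts (5), blood (4), endothelium (3) and hepatocytes (3), 1, 1, 0, 0 and 1 exceeded it on all arrays (Pdx1, Col1a1 and Ttr). One probe cannot be set against another for brightness, so the levels of different genes were not ranked.

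Among the activators, Arntl (probe ILMN_2707510) had deposited intensities of 140.7, 98.7 and 142.5 at 4 h and of 42.5, 50.3 and 37.8 at 16 h. Clock (ILMN_2610973) had 1406.7, 902.3 and 1330.8 at 4 h and 780.5, 805.6 and 555.8 at 16 h. On the deposited scale both genes were brighter on every 4 h array than on any 16 h array, as were 49.2% of the probes above the limit on every array. The paralog of Arntl, Arntl2 (ILMN_1259991), lay between -2.4 and 2.0 over the 6 arrays. Npas2 (ILMN_2668835), the paralog of Clock, lay between -6.1 and 4.6. Thus the probes of both paralogs were at background at both times, and no change is given for them.

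Among the receptors, Nr1d2 (ILMN_2798993) had 418.2, 278.3 and 290.2 at 4 h and 369.2, 328.0 and 304.2 at 16 h, and the time points overlapped on this scale. Nr1d1 (ILMN_2749669) was close to the limit, at 20, 9.7 and 17.7 at 4 h and 11.0, 21.1 and 15.2 at 16 h, and it lay above the limit on 2 of the 3 arrays at 4 h and 3 of the 3 at 16 h. Both REV-ERB genes were therefore measured, Nr1d1 with little signal over background. The probes of the activating RORs were not: the 3 probes of Rora lay between -8.5 and 16.5, with 1 probe above the limit on 1 array (16.5, 16 h replicate 3), and the 2 probes of Rorb lay between -0.2 and 11.8 and above it on none. A probe at background gives no level for its transcript. The study names Rora among the clock transcripts expressed in this line by microarray, without stating a criterion, whereas the reading here rests on the noise limit.

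**Figure D1:**
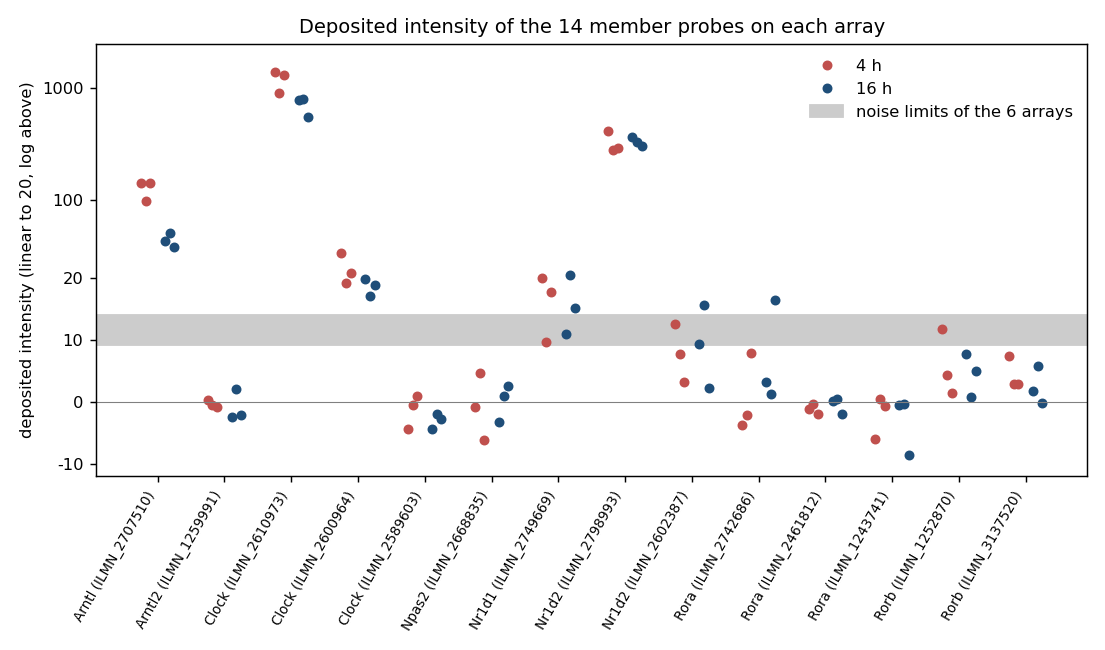
Deposited intensity (vertical axis, linear up to 20 and logarithmic above) of each of the 14 member probes on the 3 arrays at 4 h (red) and the 3 at 16 h (blue), with the range of the noise limits, 9.2 to 14, in grey. Arntl, 2 probes of Clock and 1 probe of Nr1d2 lie above the grey band on every array, whereas Arntl2, Npas2 and Rorb stay within or below it.

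Further probes of the detected genes were also examined. A second Clock probe (ILMN_2600964) was dim but above the limit on all 6 arrays, with 33.1, 19.2 and 22.3 at 4 h, against 19.9, 17.1 and 18.9 later, and its time points overlapped. The third Clock probe (ILMN_2589603) lay above it on none, and the second Nr1d2 probe (ILMN_2602387) on 1. In all, 7 of the 14 member probes lay above the limit on no array. Where a gene had several probes, the brightest on average after normalization stands for it in the comparison of the time points.

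To compare the time points, intensities were background corrected with an offset of 50, quantile normalized and transformed to log2, and all probes were fitted together with limma. The 4 h arrays were brighter throughout: over the 14941 probes that exceeded their noise limit on every array, called detected probes, the median log2 ratio of deposited mean intensities (4 h to 16 h) was 0.55, and 98.2% of these probes were above 0. After normalization the median log2 change of the same probes was 0.0014. Each change that follows is therefore relative to the other transcripts, and one that most transcripts share would be removed. The table as a whole showed few differences, with 4 of 45281 probes past an adjusted p of 0.05, or 0.00883%. None of the member genes was among them (0 of 8, limma), and 2 of the 4 detected genes, Arntl and Nr1d2, had an unadjusted p under 0.05, as did 10.9% of the 14941 detected probes.

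Arntl was the member with the highest value at 4 h relative to 16 h, a direction that is not independent of how the times were selected. Its normalized log2 intensities were 7.38, 7.36 and 7.45 at 4 h, and those at 16 h were 6.80, 6.93 and 6.89. The 4 h mean was 7.39 ± 0.05 (SD, n = 3), the 16 h mean was 6.87 ± 0.07 (SD, n = 3), and the time points did not overlap. Of the 14941 detected probes, 6.12% were likewise higher at 4 h without overlap. The log2 change was 0.52 (SE 0.069, unadjusted 95% interval 0.37 to 0.68), and with adjustment over all probes it missed the threshold (limma adjusted p = 0.138). This change exceeded that of 99.7% of detected probes. On the deposited scale the mean intensity was 2.92 times as high at 4 h, a log2 ratio of 1.55, which is 1.00 above the median ratio of detected probes. With an offset of 16 in place of 50 its normalized log2 change was 0.69 (limma adjusted p = 0.310), and with neither background correction nor offset it was 0.95 (limma adjusted p = 0.156). The study, whose limma settings are not given, lists Arntl among the genes significantly higher at 4 h. The missed threshold therefore belongs to the settings used here.

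Clock, the partner of Arntl, had a mean normalized log2 intensity of 10.08 ± 0.19 (SD, n = 3) at 4 h, against 9.86 ± 0.12 (SD, n = 3) later. Its 4 h replicate 2 (9.86) lay below 16 h replicates 1 and 2 (9.94 and 9.92), so that the time points overlapped once the brightness of the arrays was removed. The log2 change was 0.22 (SE 0.10, 95% interval -0.02 to 0.46, limma adjusted p = 0.919), above that of 93.3% of detected probes. The dim second probe of Clock gave -0.05 for the log2 change, with an SE of 0.067 (limma adjusted p = 0.975). The mean of the 3 Clock probes gave 0.08, and it includes the third probe, which lay above the limit on no array. No difference in Clock was thus called with 3 arrays per time point.

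Nr1d2 was at the other end of the distribution. Its normalized log2 intensities were 8.59, 8.42 and 8.18 at 4 h, while those at 16 h were 8.97, 8.76 and 8.95, with means of 8.40 ± 0.21 (SD, n = 3) and 8.89 ± 0.12 (SD, n = 3). Every 4 h array lay below every 16 h array, as was the case for 5.51% of detected probes. The log2 change was -0.49 (SE 0.11, 95% interval -0.74 to -0.24), lower than that of all but 0.368% of detected probes, and it too missed the threshold (limma adjusted p = 0.405). The deposited means were nearly equal, at 329 ± 77.6 (SD, n = 3) and 334 ± 32.9 (SD, n = 3), a log2 ratio of -0.02, or -0.57 relative to the median of detected probes. Whether the transcript is read as lower or as level at 4 h therefore rests on whether the brightness of the arrays is removed. The mean with its second probe, which is near background, gave a log2 change of -0.28.

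For Nr1d1 the normalized means were 6.24 ± 0.05 (SD, n = 3) at the early time and 6.36 ± 0.12 (SD, n = 3) at the late one. The difference of -0.12 (SE 0.078, 95% interval -0.29 to 0.06, limma adjusted p = 0.948) was within the spread between arrays, and the values overlapped. The probe sits near the noise limit, and the value was -0.20 with an offset of 16 and -0.53 with neither background correction nor offset (limma adjusted p = 0.942 and 0.844). Over the 4 detected member genes the median log2 change was 0.05, with Arntl and Clock above 0 and Nr1d1 and Nr1d2 below it. The intervals of Clock and Nr1d1 included 0. Over the 17366 probes above the limit on 3 or more arrays it was 0.0044. The member median was -0.15 without background correction, and between 0.019 and 0.12 when 1 array was left out.

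**Figure D2:**
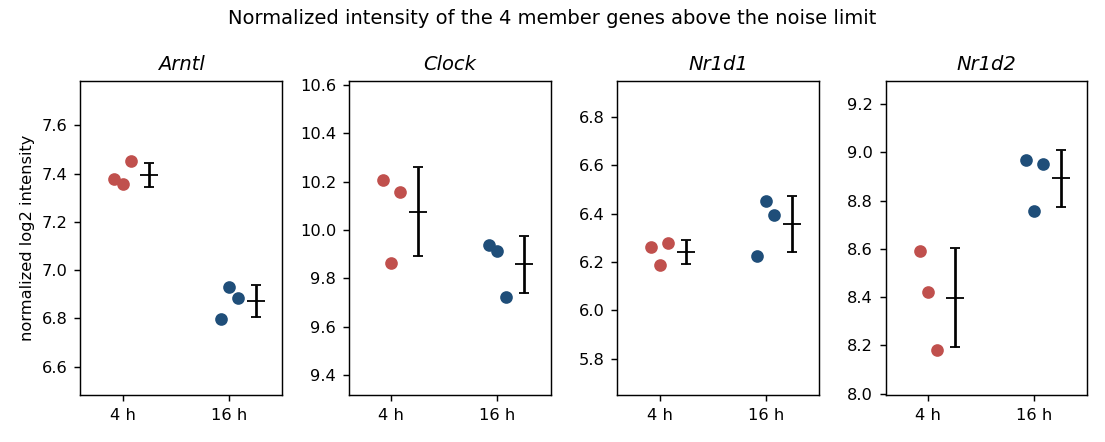
Normalized log2 intensity (vertical axis, each panel spanning the same range) of Arntl, Clock, Nr1d1 and Nr1d2 on each array at 4 h (red) and 16 h (blue), with the mean and SD of 3 arrays beside the points. Arntl separates upward at 4 h (7.39 against 6.87) and Nr1d2 downward (8.40 against 8.89), whereas the points of Clock and Nr1d1 overlap.

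**Figure D3:**
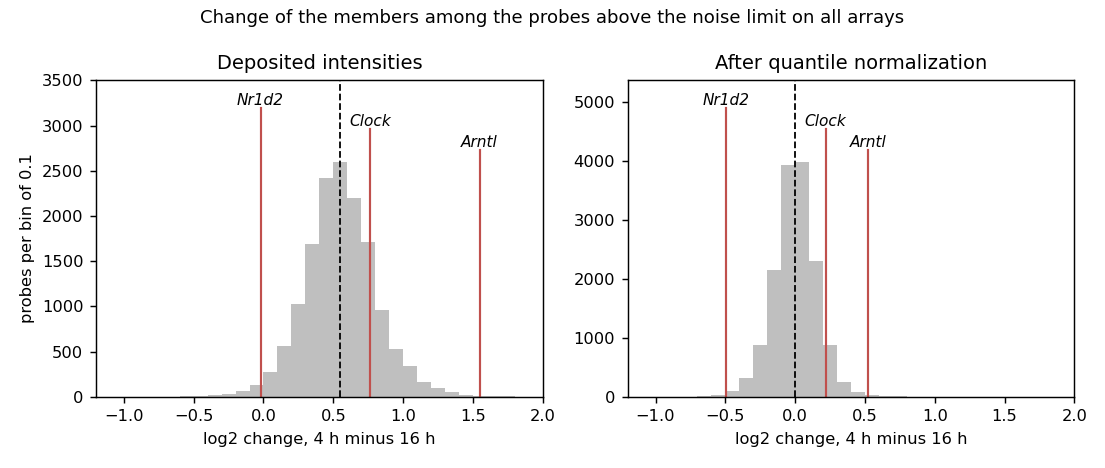
Number of probes (vertical axis, in bins of 0.1) by log2 change, 4 h minus 16 h, for the 14941 detected probes, as ratios of deposited means (left) and after normalization (right). The dashed line is the median, 0.55 on the left and 0.0014 on the right; in both panels Arntl lies in the upper tail and Nr1d2 in the lower one.

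A ratio of deposited intensities between a pair of probes on the same array is unaffected by a single multiplier per array, though not by the offset and the quantile step, so the change in the ratio of Arntl to the other genes detected on all arrays was computed. The log2 ratio of the deposited intensities of Arntl and Nr1d2, set to a mean of 0 at 16 h, was 1.37, 1.45 and 1.92 at 4 h and -0.17, 0.24 and -0.06 at 16 h. Its difference between the time points was 1.58 on the deposited scale and 1.02 on the normalized scale. For Arntl and Clock the 4 h values were 0.70, 0.83 and 0.80 and the 16 h values -0.17, 0.02 and 0.15, a difference of 0.78 (0.30 when normalized). In each of these 4 comparisons the 4 h values all lay above the 16 h values (two-sided, exact permutation p = 0.1, adjusted p = 0.1 over the 2 ratios), and 3 arrays against 3 cannot reach a smaller p. The test could therefore not pass the threshold, and on the normalized scale the lowest 4 h value of Arntl to Clock (0.157) was close to the highest 16 h value (0.149). All 4 comparisons contain Arntl, which separated the time points by itself on both scales. The share of detected probes whose ratio to Arntl also separates was not computed, so the separation is no result about Clock or Nr1d2.

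Over the 6 arrays, normalized Arntl and Nr1d2 had a Pearson correlation of -0.93, Arntl and Clock one of 0.67, and Clock and Nr1d2 one of -0.60. These describe 6 points in 2 time points and carry no test. The detected probes of named genes most like Arntl were those of Ppp2r2b (r = 0.997), Ralgps2 (0.995) and Lrrc40 (0.995). Those most like Clock belonged to Cyth3 (0.995), Kif2a (0.991) and Spred1 (0.982), and those most like Nr1d2 to Mospd1 (0.993), Wdfy1 (0.993) and Vamp4 (0.990). These are the nearest of many: 53, 45 and 43 detected probes, or 0.355%, 0.301% and 0.288%, had an r above 0.95 with Arntl, Clock and Nr1d2.

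The 3 probes for 18S ribosomal RNA separate the arrays in a way that crosses the time points, with 4 h replicates 1 and 3 and 16 h replicate 1 highest. Among these 3 arrays the log2 difference between the time points was 0.61 for Arntl, 0.25 for Clock, 0.04 for Nr1d1 and -0.58 for Nr1d2. Among the other 3 it was 0.45, 0.04, -0.24 and -0.43. Each of these differences sets 2 arrays against 1, with no spread for the single array, so no direction is read from them, and the part of 18S ribosomal RNA in the results was not tested beyond a fit with it as a block, in which Arntl was at 0.53, Clock at 0.15, Nr1d1 at -0.10 and Nr1d2 at -0.51.

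The partners of the members in the clock were then considered, from lists written with earlier results of these data known. They hold 42 genes, 40 of which had a probe and 28 of which lay above the limit on 3 or more arrays. In limma, 0 of the 28 were called higher and 1 was called lower (Tef), against 0.00442% of all probes in each direction. Of the 8 genes of the repressing arm, which close the loop on CLOCK and BMAL1, 5 were detected. All 5 had negative log2 changes without overlap between the time points after normalization (5.51% of detected probes), and all 5 had an unadjusted limma p under 0.05 (10.9% of detected probes). Their median was -0.41, beside 0.0044 over probes above the limit on 3 or more arrays. On the deposited scale the time points overlapped for all 5, and the log2 ratios were -0.35 for Cry2, -0.20 for Ciart, -0.15 for Bhlhe40, 0.012 for Per2 and 0.15 for Per1, where the median of detected probes was 0.55. The normalized log2 changes included Ciart at -0.55 (SE 0.094, limma adjusted p = 0.217), Per2 at -0.46 (SE 0.12, limma adjusted p = 0.537) and Bhlhe40 at -0.41 (SE 0.082, limma adjusted p = 0.323), which encode repressors of the dimer. The probes of Cry1 and Bhlhe41 lay above the limit on no array and that of Per3 on 1.

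Among the PAR bZIP output factors, which bind D-boxes and are themselves activated through E-boxes, Tef was at 154.8, 132.9 and 162.5 in deposited intensity at 4 h and at 211.6, 251.1 and 189.1 at 16 h. Every 4 h value was lower before normalization, as for 0.087% of detected probes, and relative to the other probes Tef was lower at 4 h (log2 change -0.82, SE 0.077, limma adjusted p = 0.0338). This call was lost when any 1 array was left out and under most other settings, among them an offset of 16 and a replicate block. Only the call was followed under these settings, so they do not show whether the size of the change moved. Dbp stood at -0.48 in log2 change, with an SE of 0.11 (limma adjusted p = 0.395), and its deposited means were 811 ± 105 (SD, n = 3) and 812.5 ± 95.7 (SD, n = 3). Hlf lay above the limit on no array, and Nfil3 was not analysed here.

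The genes of the proteins through which the receptors and the dimer work gave no call, where 0.00883% of all probes were called in either direction. Of 12 co-regulators of the ROR and REV-ERB receptors, 11 had a probe and 6 were detected, 3 with positive and 3 with negative log2 changes, and a median of -0.01. Hdac3, the deacetylase recruited by REV-ERB with NCOR1, had a log2 change of 0.07 (SE 0.073), Tbl1x, a subunit of the same corepressor complex, one of 0.09 (SE 0.13), and Crebbp, an acetyltransferase coactivator, one of -0.19 (SE 0.20). The detected Ncor1 probe was at -0.05 (SE 0.13). Of the 18 partners and modifiers of the CLOCK and BMAL1 complex, which include the casein kinases and ubiquitin ligases of the clock, 15 were detected, with log2 changes from -0.26 for Kmt2a, a histone methyltransferase, through -0.20 for Ddb1 to 0.21 for Cul4a, both parts of a ubiquitin ligase, and a median of -0.02. After normalization the time points overlapped for every detected gene of both lists, where 6.12% of detected probes were higher and 5.51% lower without overlap. Among the detected genes of these lists, 0 had an unadjusted limma p under 0.05, against 10.9% of detected probes. Across both lists the limma adjusted p of the detected genes was 0.919 or above.

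**Figure D4:**
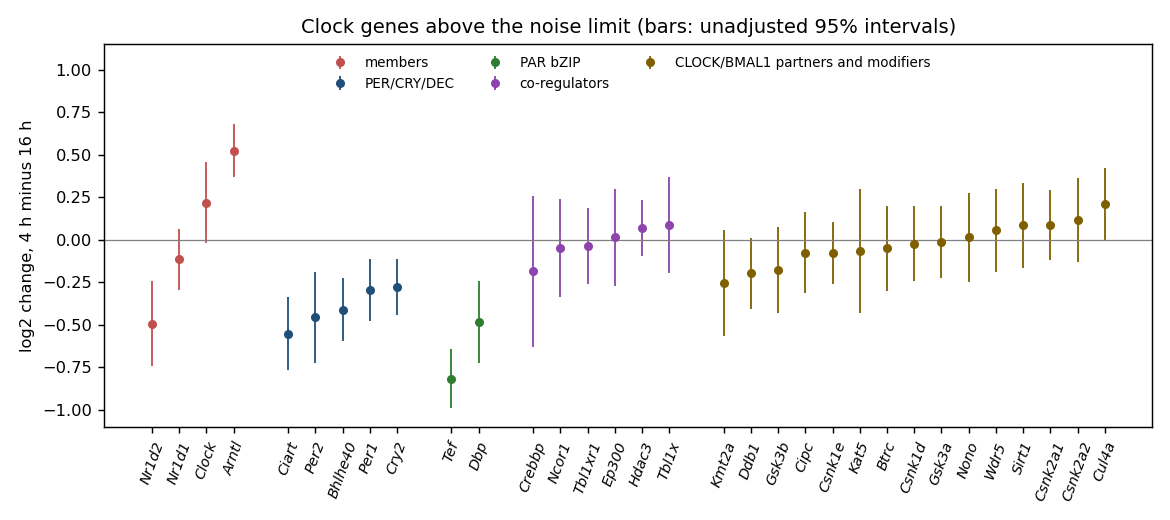
Log2 change, 4 h minus 16 h (vertical axis), with unadjusted 95% intervals, for the 4 detected member genes and the detected genes of 4 clock lists. Arntl is at 0.52 and Nr1d2 at -0.49, the detected PER/CRY/DEC and PAR bZIP genes all lie below 0 (-0.28 to -0.82), and the co-regulators and complex partners lie between -0.26 and 0.21.

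The directions of the members were compared across 18 alternative settings. Filtering probes at the noise limit, trend and robust variance, and the replicate block cannot alter a log2 change, so the direction there was fixed in advance. The same holds for the mean of all probes in Arntl and Nr1d1, which have 1 probe each. Arntl was above 0 and Nr1d2 below 0 in all 18, with log2 changes of 0.48 to 0.95 and of -0.59 to -0.02. Arntl was called in 2 of the 18, with median scaling (0.78, limma adjusted p = 0.0309) and when arrays were not normalized to each other (0.87, limma adjusted p = 0.0309), settings in which the median of detected probes was itself 0.30 and 0.39. In those settings Nr1d2 was at -0.11 and -0.02, and so again below the detected median. Without 4 h replicate 3 the log2 change of Nr1d2 was -0.38, the value nearest to 0 when 1 array was left out. Clock was above 0 in all 18 (0.08 to 0.71) and was called in none.

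**Figure D5:**
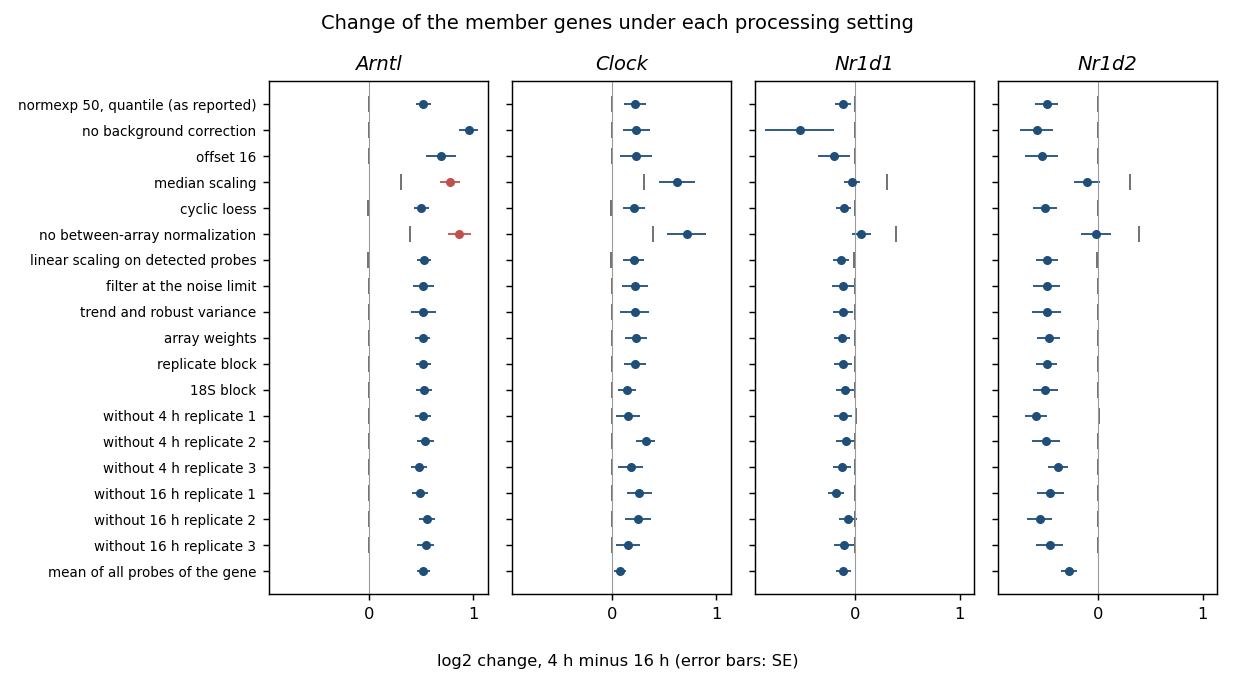
Log2 change, 4 h minus 16 h (horizontal axis), with its SE, of the 4 detected member genes under each processing setting (rows); red points passed an adjusted p of 0.05 and grey ticks show the median of detected probes under that setting. Arntl stays to the right of the grey tick and Nr1d2 to the left of it in every row that has a tick, while median scaling and no between-array normalization move the tick to 0.30 and 0.39.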

How the data were processed

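Each sample was hybridized by the authors to 1 array of a mouse WG-6 V2 Illumina BeadChip. The deposited table gives the intensity of each probe on each array, background-subtracted, linear and not normalized between arrays, with no detection p-values. Between 31.2% and 34.0% of values per array are below 0. The scanner software is not given in the sources used here. The authors' methods name limma without further settings.

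Background was modelled with normexp and an offset of 50 was added, after which quantile normalization and the log2 transformation followed. The time point was the sole factor in limma 3.58.1 (R 4.3.3), and Benjamini-Hochberg adjustment ran over 45281 probes. Between 16964 and 17847 probes per array exceeded the noise limit. The number of arrays limits the precision. The fit was tested on simulated data with a larger log2 change than that of any member, so the simulation does not bear on changes of the members' size.

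The members, lists and settings were chosen with earlier results of these data known. The text names all 8 members, in each pathway list the 3 detected genes with the smallest p (in addition, Cry2, Per1, Ncor1, Ncoa1 and undetected genes were named after their values were seen), and for each member detected on all arrays the 3 most correlated probes. Of the probes, 61.3% matched a present mouse symbol and 17.6% a synonym in RefSeq (GRCm38.p6, names only).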

Additional observations from a re-analysis of the deposited data

How the results depend on the processing

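All 4 detected member genes kept their direction in every alternative run, except Nr1d1, which was at 0.058 with no between-array normalization, below the detected median of 0.39. The filter at the noise limit, trend and robust variance, and the replicate block could not change a direction. The count of detected member genes was 4, or 3 with the noise limit doubled or with all 6 arrays required, and 4 whenever 1 array was left out. When 1 array was left out, Arntl lay between 0.48 and 0.56 (limma adjusted p 0.237 to 0.694), Clock between 0.15 and 0.32, Nr1d1 between -0.18 and -0.07 and Nr1d2 between -0.59 and -0.38. Arntl was the 1 member called with median scaling (0.78) and with no between-array normalization (0.87).

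The median of the member genes was 0.30 with median scaling, 0.39 with no between-array normalization and -0.15 without background correction. It was 0.013 with an offset of 16, 0.024 with the 18S block, and between 0.019 (without 4 h replicate 1) and 0.12 (without 4 h replicate 2) when 1 array was left out. Probes called higher and lower over the whole table numbered 19 and 10 without background correction, 832 and 0 with median scaling, 2308 and 0 with no between-array normalization, and 1 and 0 with trend and robust variance. Both were 0 with an offset of 16 (2486 probes had an unadjusted p under 0.05) and with the filter at the noise limit (1028 such probes). Cyclic loess gave 0 higher (2423 such probes), and no array left out in turn gave more than 0 higher or 0 lower (1849 to 3219 such probes). The call of Tef was lost, leaving 0 lower calls among the PAR bZIP factors, without background correction, with an offset of 16, median scaling, no between-array normalization, the filter, trend and robust variance, the replicate block or 1 array left out (0 to 0). With no between-array normalization 1 co-regulator (Hdac3), 1 complex partner (Cul4a) and 1 other bHLH-PAS factor (Ahrr) were called higher. The median of detected probes was 0.30 with median scaling and 0.39 with no between-array normalization. The cause of the differences between settings was not tested.

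The labels do not say whether arrays with the same replicate number were paired. Correlations of deviations within a number were 0.25, 0.17 and -0.49. They cannot decide it, because the deviations of a time point are not independent and arrays of unlike numbers were not compared. The replicate block left 0 calls higher and 0 lower (2489 probes with an unadjusted p under 0.05), and Arntl stayed at 0.52 (limma adjusted p = 0.305).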

Other observations

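BMAL1, CLOCK and NPAS2 belong to the bHLH-PAS family, and 13 genes of or close to this family outside the clock were also listed (1 of them, Ncoa1, is also among the co-regulators). Of these, 6 were detected and 0 were called by limma, against 0.00883% of all probes. An unadjusted limma p under 0.05 was found for 2, Ahrr and Arnt2, against 10.9% of detected probes. These 2 passed the filter through the time point at which they were higher, so the count supports nothing. Ahrr, which encodes a repressor of the aryl hydrocarbon receptor, was at 29.7 ± 8.44 (SD, n = 3) in deposited intensity at 4 h, against 9 ± 5.55 (SD, n = 3) at 16 h. Its normalized difference on the log2 scale was 0.27, with an SE of 0.091 (limma adjusted p = 0.780), and 4 of the 6 arrays exceeded the limit of noise. For Arnt2 the difference was -0.15 (SE 0.063, limma adjusted p = 0.901) and for Npas4, an activity-induced factor, -0.13 (SE 0.068, limma adjusted p = 0.924). Arnt2 lay above the limit on 0 of 3 arrays at 4 h and 3 of 3 at 16 h. The normalized values of Npas4 did not overlap (5.51% of detected probes were lower without overlap), whereas its deposited values did, at 37.7, 17.4 and 24.9 against 24.2, 27.3 and 19.4. The family members Sim1, Npas1, Npas3 and Ahr lay above the limit on no array.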
